A study of Arabidopsis thaliana with 48 samples.

Results

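The plastid fatty acid synthesis genes are 10 nuclear genes of Arabidopsis thaliana, out of 33553 genes listed in the tables, chosen by name for their place in the pathway. They are the plastid carboxylase subunit genes CAC1, BCCP2, CAC2 and CAC3, the chain-building genes KASI and MOD1, the desaturase gene SSI2, and the thioesterase genes FATA1, FATA2 and FATB. All 10 were found by locus name, and all 10 were tested by the authors' program. The RNA samples were 3 libraries of acc1-5 seedlings and 3 of wild-type (WT) seedlings, both of the Col-0 ecotype and collected 12 days after germination from plates of diluted MS medium in days of 16 h of light with 8 h of darkness. acc1-5 is an allele of ACC1, the gene of the cytosolic acetyl-CoA carboxylase, and the labels do not describe its lesion. A spray of estradiol or solvent is mentioned in the labels of every sample, without saying whether the seedlings used for RNA received it. The other 42 of 48 samples are chromatin or input libraries and were not analysed here.

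Plastids make the long-chain fatty acids of plant cells from acetyl-CoA. A carboxylase of several subunits turns acetyl-CoA into malonyl-CoA, and the malonyl group is passed to acyl carrier protein (ACP), on which the chain grows by rounds of condensation, reduction, dehydration and a second reduction. A soluble desaturase then places the first double bond, and thioesterases release the free fatty acids for export from the plastid. The cytosol has its own malonyl-CoA, made by ACC1 and used for fatty acid elongation in the endoplasmic reticulum. Comparing acc1-5 with WT asks whether transcripts of the plastid pathway differ in level when the cytosolic carboxylase gene carries the mutation.

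Each level below is the authors' FPKM (fragments per kilobase of transcript and per mapped fragments of a library), which is scaled to length, so that levels of different genes may be set side by side. The tables hold 1 value per genotype with a lower and an upper bound, without values of single libraries, so there is no spread between replicates to report and sequencing depth is unknown. The test is the authors' own, and a gene was called where its main transcript, the one with the highest mean FPKM, had a q-value under 0.05. The half-width of the bounds was 30.1% to 41.9% of the FPKM for the members' main transcripts, and the bounds of both genotypes overlapped for all 10. Seedlings hold shoots and roots, and both were present in these libraries by their markers, at unequal levels. Summed over 8 genes of light harvesting and Rubisco, the green tissue markers had 16662 FPKM in acc1-5 and 28205 in WT, lower in acc1-5 for 8 of 8, with 0 called. The half-width of their bounds ran from 46.1% of the FPKM for LHCB2.2 in acc1-5 to 150% for RBCS1A in WT. All 5 root hair markers rose, with a summed level of 125 FPKM in acc1-5 and 15.0 in WT, and 5 of 7 root endodermis markers rose, with 38.2 in acc1-5 and 9.11 in WT. Of 5 seed markers, 1 rose, and the summed levels were 14.8 FPKM in acc1-5 and 0.0236 in WT, where OLEO2, CRU3 and SESA3 were listed at 0, SESA3 being at 0 in acc1-5 as well. The part of these tissue differences in the results below was not tested. In RNA from whole seedlings, fewer cells of a type and less RNA per cell cannot be told apart.

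Most members were not called as different from WT, and the exception was a pair of thioesterase genes that moved in opposite directions. Of the 10 members, 1 rose (FATA1), 1 fell (FATA2) and 8 were not called. Among all 20509 tested genes, 19.9% were called, 10.9% as higher and 9.04% as lower in acc1-5, so 2 of 10 is a share close to the background. The median log2 fold change of the members was -0.16, against -0.01 for all tested genes, whose quartiles lay at -0.30 and 0.30. The level was lower in acc1-5 for 8 of 10 members, against 50.7% of all tested genes. Added together, the main transcripts of the members came to 589.6 FPKM in acc1-5 and 667 in WT, a ratio of 0.884.

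**Figure D1:**
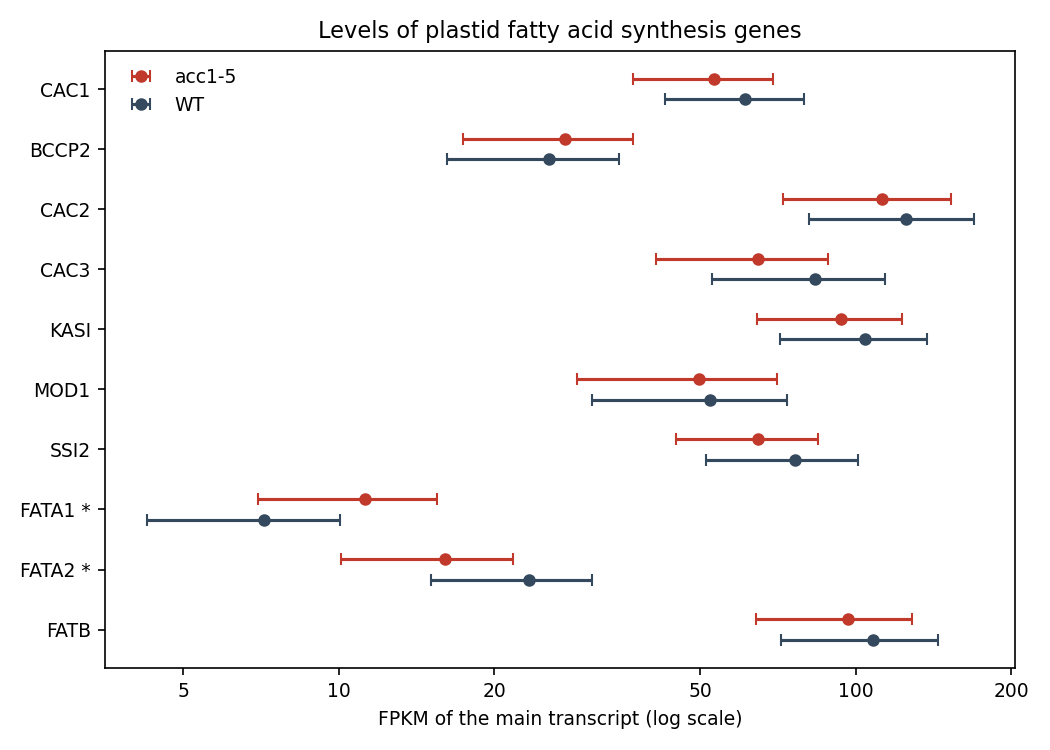
FPKM of the main transcript of each member in acc1-5 (upper point of each pair) and WT (lower point), on a log axis, with the authors' lower and upper bounds as bars; the confidence level of the bounds is not given in the sources used here, and an asterisk marks a q-value under 0.05. FATA1 is higher and FATA2 lower in acc1-5, and the other 8 pairs were not called.

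The carboxylase commits acetyl-CoA to fatty acid synthesis, and none of the 4 members that encode its subunits was called. With 19.9% of all tested genes called, 0 of 4 does not set them apart from the background. CAC1 (AT5G16390, chromosome 5, 5360801 to 5363126 on TAIR10) encodes a biotin carboxyl carrier protein, the subunit that bears the biotin. It had 53.1 FPKM in acc1-5 (bounds 37.0 to 69.1) and 61.1 in WT (42.8 to 79.5), with a log2 fold change of -0.20 and q = 0.576 in the authors' deposited table. BCCP2 (AT5G15530, chromosome 5, 5038751 to 5040840) encodes the second carrier protein, an isoform known best from developing seeds. It had 27.5 FPKM in acc1-5 (17.4 to 37.1) and 25.5 in WT (16.2 to 34.8), with a log2 fold change of 0.11 and q = 0.854 in the authors' deposited table. BCCP2 was thus the one of the 8 uncalled members with a level above WT. Of the summed level of both carrier genes, BCCP2 held 34.1% in acc1-5 and 29.4% in WT, while the sum itself was 80.5 FPKM in acc1-5 and 86.6 in WT.

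CAC2 (AT5G35360, at a merged locus on chromosome 5 from 13584106 to 13591271) encodes the biotin carboxylase, which charges the biotin with carbon dioxide. It was the highest of the 10 members in both genotypes, at 112.6 FPKM in acc1-5 (72.2 to 153.1) and 125 in WT (81.4 to 169), and its q-value was 0.776 in the authors' deposited table. CAC3 (AT2G38040, at a merged locus on chromosome 2 from 15917093 to 15922313) encodes the alpha subunit of the carboxyltransferase, which moves the carboxyl group to acetyl-CoA. It had 64.7 FPKM in acc1-5 (41.0 to 88.5) and 83.3 in WT (52.7 to 114), the widest gap among the uncalled members, with a log2 fold change of -0.36, p = 0.109 and q = 0.346 in the authors' deposited table. A second CAC3 transcript, AT2G38040.2, had 16.1 FPKM in acc1-5 and 18.3 in WT, so the main transcript held 80.1% of the gene's summed level in acc1-5 and 82.0% in WT.

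Levels of the carboxylase subunits can be set against each other. CAC2 was at 1.40 times the summed carrier genes in acc1-5 and at 1.45 times in WT. CAC3 was at 0.804 times that sum in acc1-5 and at 0.961 times in WT. These are ratios of single estimates and carry no test. The remaining subunit, the beta subunit of the carboxyltransferase, is encoded in the plastid genome, and 0 of 278 listed organelle transcripts were tested, so it has no comparison here. In the tables CAC2 shares its locus with AT5G35370, which had 11.4 FPKM in acc1-5 and 6.97 in WT (q = 0.615 in the authors' deposited table). CAC3 shares its locus with DET2, a gene of brassinosteroid synthesis, at 15.8 FPKM in acc1-5 and 14.1 in WT (q = 0.966 in the authors' deposited table). Whether reads were counted by strand is not given in the sources used here, so any reads from stretches where such neighbours overlap could be assigned to either gene.

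The chain-building members were not called either. KASI (AT5G46290, chromosome 5, 18774086 to 18776742) encodes the condensing enzyme that carries out most rounds of elongation, up to the palmitoyl chain. It had 93.6 FPKM in acc1-5 (64.4 to 122.7) and 104 in WT (71.5 to 137), with a log2 fold change of -0.16 and q = 0.730 in the authors' deposited table. MOD1 (AT2G05990, chromosome 2, 2322222 to 2325146) encodes the enoyl-ACP reductase, which closes each round. Its main transcript, AT2G05990.1, had 49.7 FPKM in acc1-5 (28.9 to 70.5) and 52.3 in WT (30.9 to 73.8), with a log2 fold change of -0.07 and q = 0.936 in the authors' deposited table, the smallest change of any member. A second MOD1 transcript, AT2G05990.2, was nearly as abundant, at 33.1 FPKM in acc1-5 and 34.3 in WT. It made up 40.0% of the gene's summed level in acc1-5 and 39.6% in WT, so the main transcript alone understates the level of MOD1.

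SSI2 (AT2G43710, chromosome 2, 18119956 to 18122889) encodes the stearoyl-ACP desaturase that makes most oleate in leaves, and mutants of it are known for activated defence. It had 64.8 FPKM in acc1-5 (44.9 to 84.6) and 76.2 in WT (51.4 to 101), with a log2 fold change of -0.23 and q = 0.526 in the authors' deposited table. The bounds of the genotypes overlapped over most of their length.

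The thioesterases hold both called members. FATA enzymes act mainly on oleoyl-ACP, and FATB, which prefers saturated chains, releases palmitate. FATA1 (AT3G25110, chromosome 3, 9146271 to 9148486) had 11.2 FPKM in acc1-5 (6.99 to 15.5) and 7.17 in WT (4.25 to 10.1). It rose 1.57-fold, with a log2 fold change of 0.65, p = 0.00555 and q = 0.0367 in the authors' deposited table. FATA2 (AT4G13050, chromosome 4, 7617561 to 7619616) fell to 16.0 FPKM in acc1-5 (10.1 to 21.7), against 23.4 in WT (15.1 to 30.9). Its log2 fold change was -0.54, a level of 0.686 times WT, with p = 0.00680 and q = 0.0432 in the authors' deposited table. Neither gene had a q-value under 0.01, a limit that 13.4% of tested genes met. FATB (AT1G08510, chromosome 1, 2691080 to 2694377) had 96.4 FPKM in acc1-5 (64.2 to 128.6) and 108 in WT (71.6 to 145), with a log2 fold change of -0.17 and q = 0.718 in the authors' deposited table.

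Because the genes moved in opposite directions, their sum moved less than either. FATA1 and FATA2 together had 27.3 FPKM in acc1-5 and 30.5 in WT, a ratio of 0.893. FATA1 held 41.2% of that sum in acc1-5 and 23.5% in WT. In acc1-5 the bounds of FATA1 and FATA2 overlapped, and in WT they did not. Among the 3 thioesterase genes FATB held 78.0% in acc1-5 and 78.0% in WT. No test was made of these shares. FATA1 and FATA2 are paralogs whose products share a function. How the authors' program assigned reads that match both is not given in the sources used here. Whether the split between the genes depends on that assignment was not tested.

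**Figure D2:**
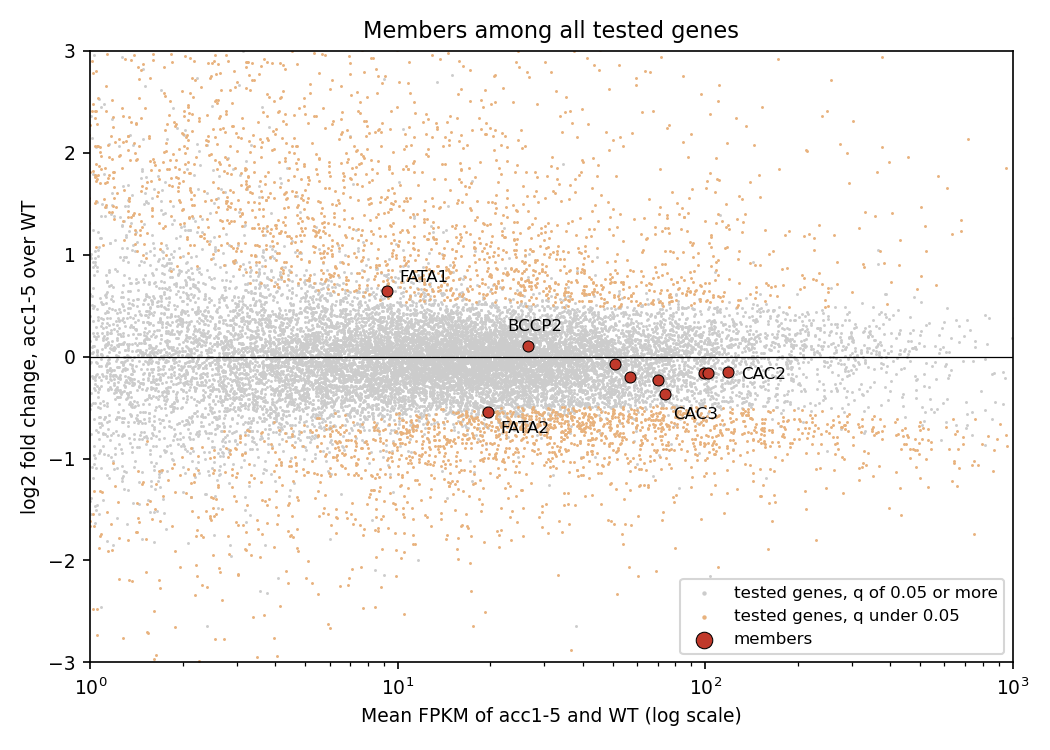
Log2 fold change of acc1-5 over WT against mean FPKM (log axis) for the main transcript of each tested gene, with genes at the extremes of either axis left out of the frame; large points are the members, of which 5 are named. FATA1 at 0.65 and FATA2 at -0.54 lie at the edge of the called genes, and the other members lie inside the uncalled band.

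The 8 uncalled members had smaller absolute log2 fold changes than any called in the range of levels of all members. This follows in part from their not being called. Their log2 fold changes ran from -0.36 to 0.11, that is from 0.777 to 1.08 times WT, with q-values from 0.346 to 0.936. The members' mean levels ran from 9.20 FPKM for FATA1 to 119 for CAC2, and 10947 tested genes lay in that range, of which 19.1% were called. In that range the smallest absolute log2 fold change called was 0.49, which is 1.40-fold. That value is the smallest called, not a detection limit, and what difference the test could detect in each of these 8 genes was not computed. The missed threshold does not show that the levels were equal. Of the tested genes in that range, 65.5% lay as close to 0 as CAC3, the uncalled member farthest from 0, and 53.9% had a lower level in acc1-5.

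The order of the members by level was nearly the same in both genotypes. In acc1-5 it ran CAC2, FATB, KASI, SSI2, CAC3, CAC1, MOD1, BCCP2, FATA2 and FATA1, and in WT CAC3 stood before SSI2 with the rest in the same order. Between neighbours in that order the bounds overlapped for all 9 pairs in acc1-5 and for 8 of 9 in WT, the exception being FATA2 and FATA1. CAC2 had a higher mean level than all but 6.06% of tested genes, and FATA1, the lowest member, was exceeded by 59.4% of them (both figures count the gene itself).

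At an unadjusted p under 0.05 the count of members was the same, 1 higher and 1 lower, where 30.3% of tested genes passed. The members had 18 listed transcripts, of which 13 were tested and 2 called, those of FATA1 and FATA2. BCCP2, FATA1, FATA2 and FATB had 1 transcript each. Of the 8 minor transcripts of the other 6 genes, 6 had a mean under 1 FPKM, with 0.660 as the highest. The main transcript held 99.5% of the summed level in acc1-5 and 99.4% in WT for CAC1, 99.6% in acc1-5 and 99.3% in WT for CAC2, and 99.7% in acc1-5 and 99.9% in WT for KASI. CAC3 and MOD1 were thus the members with a second transcript of some level, and the shares of their transcripts differed by less than 2 percentage points between genotypes.

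**Figure D3:**
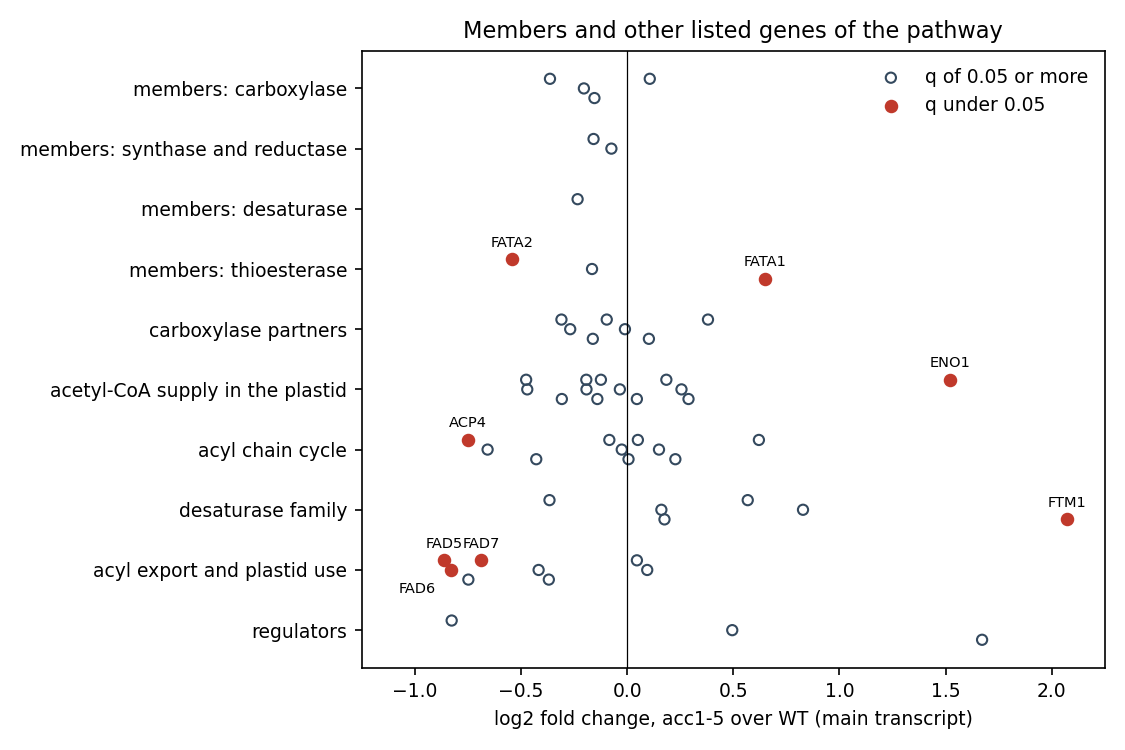
Log2 fold change of acc1-5 over WT for the main transcript of each tested member and each tested gene on the other pathway lists, 1 row per list; filled points have a q-value under 0.05 and are named. The carboxylase, synthase and desaturase members hold only open points between -0.36 and 0.11, and ENO1 and FTM1 lie farthest to the right among filled points.

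Around the members, 50 further genes were listed by their place in or next to the pathway, and 47 were tested. Of these, 2 rose, 4 fell and 41 were not called, so 12.8% were called, against the background of 19.9%. Their median log2 fold change was -0.03. None of the 7 tested partners of the carboxylase was called. The most abundant was AT1G42960, which has no symbol in the annotation used, with 209 FPKM in acc1-5 and 210.2 in WT. AT5G16660, also without a symbol, had 151 FPKM in acc1-5 and 188 in WT. AT3G56130 had 65.7 FPKM in acc1-5 and 59.1 in WT and was not tested, being marked LOWDATA by the authors' program. AT3G15690 had 47.4 FPKM in acc1-5 and 57.1 in WT (q = 0.412 in the authors' deposited table). ACC2, which encodes a plastid carboxylase of a single chain and was named for that role although its level is low, had 2.56 FPKM in acc1-5 and 1.97 in WT. That is far under the subunit genes above, and its q-value was 0.280 in the authors' deposited table.

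Of 13 tested genes that supply acetyl-CoA in the plastid, 1 rose, 0 fell and 12 were not called. The share called among all tested genes was 19.9%. ENO1, which encodes the plastid enolase, an enzyme of the glycolytic steps that make phosphoenolpyruvate, had 42.5 FPKM in acc1-5 (28.1 to 56.8) and 14.8 in WT (9.54 to 20.1). It rose 2.87-fold, with a log2 fold change of 1.52 and q = 7.46e-04 in the authors' deposited table, and its bounds did not overlap. That q-value goes with p = 5e-05, the smallest p-value in the authors' deposited table. ACP4, FTM1, FAD5 and FAD6 below have the same p and q, so these values do not rank the genes. The genes of pyruvate kinase, the enzyme after enolase in this route, were not called. PKP-ALPHA had 116 FPKM in acc1-5 and 161 in WT (log2 fold change -0.47, q = 0.0953 in the authors' deposited table). PKP-BETA1 had 108 FPKM in acc1-5 and 134 in WT (q = 0.374 in the authors' deposited table). PDH-E1 ALPHA, a subunit gene of the plastid pyruvate dehydrogenase that makes acetyl-CoA, had 99.0 FPKM in acc1-5 and 113 in WT (q = 0.634 in the authors' deposited table). AT4G16155, named after its value was seen, had 35.1 FPKM in acc1-5 and 48.8 in WT, with a log2 fold change of -0.48 and q = 0.0561 in the authors' deposited table.

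In the chain cycle, 1 of 10 tested genes fell, 0 rose and 9 were not called, where 19.9% of all tested genes were called. The one that fell was ACP4, which encodes the main acyl carrier protein of leaves. It fell to 269 FPKM in acc1-5 (182 to 356), against 452 in WT (299 to 604), with a log2 fold change of -0.75 and q = 7.46e-04 in the authors' deposited table. ACP3 had 159 FPKM in acc1-5 and 161 in WT, and ACP2 had 117 in acc1-5 and 99.7 in WT, and in the authors' deposited table their q-values were 0.975 and 0.523. AT1G24360, which has no symbol in the annotation used, had 107.9 FPKM in acc1-5 and 104 in WT (q = 0.955 in the authors' deposited table). ACP1 had 77.6 FPKM in acc1-5 and 50.5 in WT, with a log2 fold change of 0.62 and q = 0.0530 in the authors' deposited table. It was named after its value was seen, and it shares its locus with Cand2. ACP5 was at 0.273 FPKM in acc1-5, was listed at 0 in WT, and was not tested. Summed, the acyl carrier protein genes had 622 FPKM in acc1-5 and 763 in WT. ACP4 held 43.2% of this sum in acc1-5 and 59.2% in WT. Green tissue markers were lower in the same libraries, with a median log2 fold change of -0.68, wide bounds and 0 of 8 called. The part of tissue in the level of ACP4 was not tested.

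Among 6 further loci listed with the desaturase family of SSI2, 1 rose, 0 fell and 5 were not called. That is near the 19.9% called among all tested genes. FTM1 (AT1G43800), which the annotation also names stearoyl-ACP desaturase 6, had 41.9 FPKM in acc1-5 (26.2 to 57.3) and 9.98 in WT (5.79 to 14.1). It rose 4.20-fold, with a log2 fold change of 2.07 and q = 7.46e-04 in the authors' deposited table, and its bounds did not overlap. The highest of the others was AT3G02630, at 48.7 FPKM in acc1-5 and 43.5 in WT (q = 0.715 in the authors' deposited table). AT5G16240 had 8.54 FPKM in acc1-5 and 11.0 in WT, and AT5G16230 had 4.03 in acc1-5 and 2.72 in WT. Summed over SSI2 and these 6 loci, the family had 170.5 FPKM in acc1-5 and 145 in WT. SSI2 held 38.0% of the sum in acc1-5 and 52.5% in WT, and FTM1 held 24.6% in acc1-5 and 6.87% in WT. The families of acyl carrier proteins and desaturases were chosen for this sum after their values were seen.

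**Figure D4:**
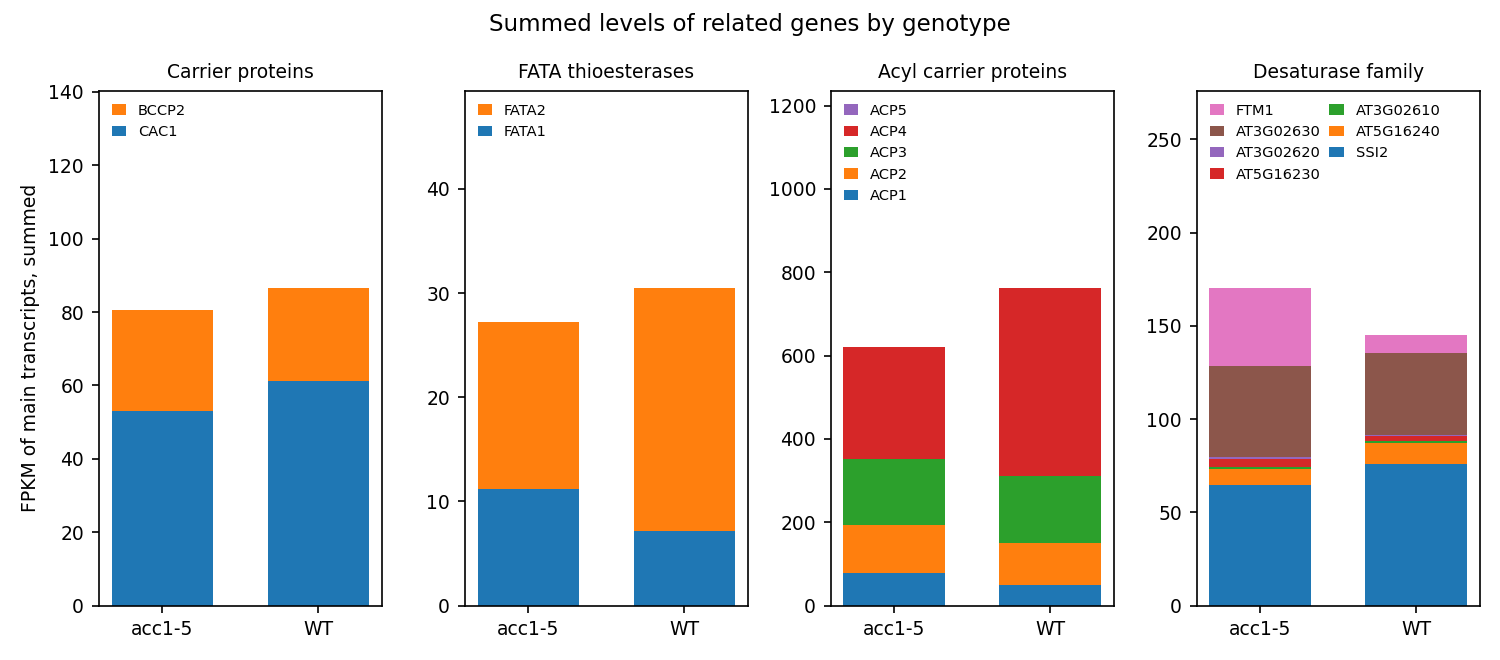
Summed FPKM of the main transcripts of related genes in acc1-5 (left bar) and WT (right bar), stacked by gene, for the carrier proteins of the carboxylase, the FATA thioesterases, the acyl carrier proteins and the desaturase family. The bars differ less in height than in makeup for FATA1 against FATA2, while ACP4 is lower and FTM1 higher in acc1-5; the bars carry no error.

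On the list of genes that export or use the new acyl chains, the falls were all in desaturase genes and none was in an export gene. Of 8 tested, 3 fell, 0 rose and 5 were not called, with a median log2 fold change of -0.55. The share called was 37.5%, against 19.9% of all tested genes, of which 9.04% were called lower. The list is short and was written with earlier results known. The 3 that fell were FAD5, FAD6 and FAD7, desaturase genes that act on lipids of plastid membranes. FAD6 fell to 111.4 FPKM in acc1-5 (72.9 to 149), against 198 in WT (125 to 271), with a log2 fold change of -0.83 and q = 7.46e-04 in the authors' deposited table. FAD5 fell to 53.0 FPKM in acc1-5 (33.8 to 71.1), against 96.4 in WT (61.8 to 131), with a log2 fold change of -0.86 and q = 7.46e-04 in the authors' deposited table. FAD7 fell to 111.1 FPKM in acc1-5, against 179 in WT, with a log2 fold change of -0.69 and q = 0.00729 in the authors' deposited table. Green tissue markers, with their median of -0.68 and 0 of 8 called, were lower beside these genes, and the part of that in the falls was not tested. The highest of the uncalled genes was AT3G57280, which has no symbol in the annotation used, with 67.6 FPKM in acc1-5 and 65.4 in WT (q = 0.949 in the authors' deposited table). LACS9, an acyl-CoA synthetase gene of the plastid envelope, had 31.8 FPKM in acc1-5 and 29.7 in WT. ATS2, an acyltransferase gene of plastid lipid synthesis, had 43.4 FPKM in acc1-5 and 56.1 in WT (q = 0.177 in the authors' deposited table). ATS1, another acyltransferase gene of plastid lipid synthesis, was the uncalled gene nearest the threshold on these lists and was named after its value was seen. Its main transcript, AT1G32200.2, had 16.3 FPKM in acc1-5 and 27.4 in WT, with a log2 fold change of -0.75 and q = 0.0501 in the authors' deposited table. A second ATS1 transcript, AT1G32200.1, held 48.3% of the gene's summed level in acc1-5 and 43.4% in WT. It had 15.2 FPKM in acc1-5 and 21.0 in WT, with a smaller log2 fold change of -0.46 and q = 0.358 in the authors' deposited table.

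The WRINKLED transcription factors, of which WRI1 is known to activate fatty acid synthesis genes in seeds, were not called, 0 of 3. Against 19.9% of all tested genes called, 3 genes are too few to differ from the background. WRI4 had 28.3 FPKM in acc1-5 (0.753 to 61.0) and 50.1 in WT (22.0 to 78.3), with q = 0.398 in the authors' deposited table and a locus shared with NUDT3. WRI3 had 6.40 FPKM in acc1-5 and 4.54 in WT (q = 0.294 in the authors' deposited table). The WRI1 transcript with the highest mean, AT3G54320.3, had 5.39 FPKM in acc1-5 (2.14 to 8.63) and 1.69 in WT (0 to 3.84), with q = 0.279 in the authors' deposited table. Another WRI1 transcript, AT3G54320.1, had 1.02 FPKM in acc1-5 and 2.65 in WT, with q = 0.618 in the authors' deposited table. A further WRI1 transcript, AT3G54320.2, had 3.25e-04 FPKM in acc1-5 and 1.47 in WT, with q = 0.677 in the authors' deposited table. AT3G54320.3 held 84.1% of the gene's summed level in acc1-5 and 29.1% in WT. The forms leaned in opposite directions, each without passing the test, so AT3G54320.3 alone does not give the change of the gene.

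Beside the plastid pathway, none of the tested genes listed for cytosolic acetyl-CoA or for the fatty acid elongase core was called. Of 5 tested cytosolic genes 0 were called, against 19.9% of all tested genes, and their median log2 fold change was 0.06. With so few genes, 0 calls do not show a share under that background. ACC1 itself had 33.4 FPKM in acc1-5 and 33.1 in WT (q = 0.991 in the authors' deposited table). The most abundant gene on the cytosolic list was ACLA-1, a subunit gene of ATP-citrate lyase. Its main transcript had 134 FPKM in acc1-5 and 121 in WT and was not tested, being marked LOWDATA by the authors' program. Of 8 tested elongase genes 0 were called, where 19.9% of all tested genes were. Their median was 0.19, in a wide range from -0.37 to 1.69. The upper end was KCS2, at 10.9 FPKM in acc1-5 and 3.37 in WT, with WT bounds of 0 to 8.11 and a locus shared with AT1G04210. The difference between the medians of the cytosolic and elongase lists and the -0.16 of the plastid members was not tested.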

How the data were processed

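RNA from seedlings was sequenced from libraries made with a TruSeq RNA kit, per the labels' protocols. The submitters' processing notes name TopHat 1.4.0, Cufflinks 2.1.1, Cuffdiff 2.1.1, Bowtie and the TAIR10 build. Per the file headers, the authors deposited FPKM with a lower and upper bound per genotype, the log2 fold change (acc1-5 over WT, in columns named ACC1 and WT), p-values and q-values per transcript, and a test statistic (a score not used here). How libraries were combined is not given in the sources used here, so what spread the p-values rest on is unknown, and no label states that each library had its own culture of seedlings.

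limma on single libraries was planned, but the tables hold 1 value per genotype, so the authors' q-values were used over all 25307 transcripts tested. FPKM times length did not fall on whole multiples of a common step (at best 18.5% of low acc1-5 and 17.7% of low WT values within 5% of a step), so no count test was run. A gene stands for its transcript with the highest mean FPKM. Named are all members, in the other pathway lists called genes, genes not tested and up to 3 more by highest mean level, and ACC1 and called genes in the cytosolic and elongase lists. ACC2, ACP1, ATS1, AT4G16155, ACLA-1 and KCS2 were named outside this rule. The members and lists were chosen with earlier results of these data known. Start positions in the files count from 0 and were raised by 1. Names of 98 of 99 listed genes were matched in RefSeq (TAIR10.1). Alternatives were q under 0.01, unadjusted p under 0.05, pseudocounts of 0.1 and 1, a mean FPKM of at least 1, centring, summing transcripts and counting each transcript. Python 3.11.15, pandas 2.3.3 and numpy 2.4.6 were used, with counting checked on simulated data.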

Additional observations from a re-analysis of the deposited data

How the results depend on the processing

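With q under 0.01, 0 members were called higher and 0 lower, so the calls of FATA1 and FATA2 both rest on the threshold of 0.05. At an unadjusted p under 0.05 the authors' test called the same number of members, 1 higher and 1 lower. Among the other pathway genes 9 fell at an unadjusted p under 0.05, against 4 by q. Calls rose over the whole table as well, with 30.3% of all tested genes passing that p threshold in either direction, against 19.9% by q. Over all transcripts, falls numbered 1174 with q under 0.01 and 3081 at an unadjusted p under 0.05, against 1879 with q under 0.05. A minimum mean of 1 FPKM or counting every tested transcript gave the same counts of members, and moved no count of other pathway genes by more than 1.5 times. Under pseudocounts, centring on the median of tested transcripts and summing of transcripts, all 10 members kept the sign of their log2 fold change, and the shares within families kept their direction when transcripts were summed. No paired analysis was possible because the tables give 1 value per genotype, and leaving out single libraries could not be run for the same reason. The bounds reached 30.1% to 41.9% of a member's level to either side. FATA1 and FATA2 were called although their bounds overlapped between genotypes, and how the bounds relate to the calls was not tested.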
